A study of Mus musculus with 8 samples.

Results

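The proteasome subunit genes of the ventral prostate were followed here in mice that carry human SKP2 and in wild-type mice. They were taken by name, as every listed gene called Psma, Psmb, Psmc, Psmd, Psme or Psmf followed by a number, without the inducible catalytic subunits Psmb8, Psmb9 and Psmb10, which gave 41 of 36333 listed genes. RNA came from the ventral lobes of 4 hSKP2-KI and 4 WT mice (WT, wild type), all FVB/N and 12 months old, with 1 library per mouse. In the hSKP2-KI mice a P2A-human SKP2 coding sequence sits in exon 1 of probasin (Pbsn), an X-linked gene expressed in prostate epithelium, so that the endogenous promoter of that gene drives it. More than 1 knock-in line was made, and the line or lines sequenced are not named in the sources used here. The authors deposited TPM, in which the reads of a gene are divided by transcript length and every library is scaled to the same total, so TPM keeps no counts. The methods give 1 nominal read number for these libraries, and the reads counted in each are not given in the sources used here. Poly-A RNA of whole lobes was read, so fewer cells of a type and less RNA per cell cannot be told apart.

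The proteasome is the protease that degrades proteins tagged with ubiquitin. Its 20S core is a barrel of stacked alpha and beta rings, in which Psmb5, Psmb6 and Psmb7 carry the chymotrypsin-like, caspase-like and trypsin-like active sites. The 19S cap binds ubiquitin chains, removes them and threads the substrate into the core, and other caps (Psme proteins) open the core without ubiquitin. SKP2 is the substrate-binding subunit of an SCF ubiquitin ligase and sends p27 and other cell cycle proteins to the proteasome. Subunit genes are known to be driven together by NFE2L1 when proteasome activity is short, while interferon gamma raises the inducible subunits and the Psme1 and Psme2 cap.

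The promoters of 4 genes that the results turn on are shown, each from 250 bases before to 50 bases after the start of the gene, 5′ to 3′ along the gene's strand, from RefSeq on GRCm38.p6. Capitals mark a searched letter pattern. In Psmd5, the 19S assembly chaperone with the largest fall, they mark TCGCGAGA read on either strand, whose 4 overlapping matches begin at -72, -70, -26 and -24 from the start (chr2:34870913-34871212, minus strand). In Psmb5, the chymotrypsin-like subunit, they mark TGACNNNGC, a core of the antioxidant response element that NFE2L1 and NFE2L2 bind, at -47 (chr14:54617946-54618245, minus strand). In Psme1, of the cap that interferon gamma raises, they mark the reverse complement of GAAANNGAA, a form of the repeat that interferon regulatory factors bind, at 11 (chr14:55578244-55578543, plus strand). In Psmb8, the inducible counterpart of Psmb5, they mark TTCNNNGAA, the spacing of a STAT site, at -97 (chr17:34197945-34198244, plus strand).
Psmd5: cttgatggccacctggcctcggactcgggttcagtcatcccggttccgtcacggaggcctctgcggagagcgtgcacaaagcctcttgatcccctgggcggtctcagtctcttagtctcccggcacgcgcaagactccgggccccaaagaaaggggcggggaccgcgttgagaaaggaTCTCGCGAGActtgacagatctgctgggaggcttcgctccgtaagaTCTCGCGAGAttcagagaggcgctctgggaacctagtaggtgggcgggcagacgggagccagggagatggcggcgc
Psmb5: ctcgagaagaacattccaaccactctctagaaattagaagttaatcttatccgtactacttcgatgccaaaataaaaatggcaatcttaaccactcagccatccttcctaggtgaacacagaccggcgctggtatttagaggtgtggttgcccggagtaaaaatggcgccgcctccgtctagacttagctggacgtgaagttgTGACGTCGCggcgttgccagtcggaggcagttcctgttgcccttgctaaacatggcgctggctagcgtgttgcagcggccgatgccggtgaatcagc
Psme1: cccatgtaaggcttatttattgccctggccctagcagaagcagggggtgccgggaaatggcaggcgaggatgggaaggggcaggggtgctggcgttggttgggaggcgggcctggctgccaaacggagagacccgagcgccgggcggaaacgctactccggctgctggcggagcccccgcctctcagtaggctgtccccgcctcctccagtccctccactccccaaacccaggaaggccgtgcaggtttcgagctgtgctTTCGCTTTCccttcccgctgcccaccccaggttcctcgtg
Psmb8: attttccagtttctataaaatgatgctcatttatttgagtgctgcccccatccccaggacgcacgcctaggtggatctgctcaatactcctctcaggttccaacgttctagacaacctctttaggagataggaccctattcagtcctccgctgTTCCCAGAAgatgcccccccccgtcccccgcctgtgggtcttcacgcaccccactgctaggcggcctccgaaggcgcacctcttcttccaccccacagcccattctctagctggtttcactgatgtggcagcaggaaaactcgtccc

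In all, 17 patterns were searched on both strands, some of them contained in others, in the 300-base promoters of 33 tested genes of the set and of 32851 promoters in the table. TGACNNNGC was found in 6 of the 33 (Psmb5, Psmb6, Psmc6, Psmd9, Psmd12 and Psme4) and in 12.4% of all promoters. GAAANNGAA was found in 6 (Psmb3, Psmb4, Psmc2, Psmd4, Psmd9 and Psme1) against 8.56% of all, and TTCNNNGAA in 1 (Psmd2) against 8.30%. CCGGAAG, a core of ETS factor sites, was found in 12 of the 33 and in 8.86% of all promoters. TCGCGAGA was found in Psmd5 alone among the 33 and in 0.995% of all promoters. A gene of the set was counted if any of its listed promoters matched, while the share of all is over single promoters. A match describes letters in this window and is not a binding site.

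The labels were checked first. Mouse Skp2 was between 37.3 and 60.6 TPM as deposited in hSKP2-KI and between 1.046 and 2.27 in WT, a value that may hold reads of the human sequence too, and Pbsn was between 93.0 and 174 in hSKP2-KI and between 3980 and 9232 in WT. The 20 most abundant genes took 41.5% to 45.0% of TPM in hSKP2-KI and 49.9% to 54.3% in WT. Because all TPM in a library share 1 total, the TPM of the other genes moves with that share. Each library was therefore divided by its median ratio over genes, a factor of 1.07 to 1.12 in hSKP2-KI and 0.827 to 0.985 in WT, and the results are given on this scaled TPM with the deposited TPM beside them. WT replicate 1 had the lowest factor and the highest scaled TPM of the 8 libraries for 30 of the 39 tested genes of the set. Epithelial markers such as Epcam and Krt8 were present throughout, with summed scaled TPM of 2426 to 3005 in hSKP2-KI and 2534 to 2908 in WT, and 0 of 7 were called (a gene is called at an adjusted p under 0.05).

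Proteasome transcripts were abundant, and most varied less within a genotype than the median tested gene. Of the 41 genes, 39 had 4 or more libraries at 1 TPM or above and were tested. The other two were Psma8, an alpha subunit of the testis, and Psmb11, the beta subunit of thymic cortical epithelium. Psmb11 was listed at 0 in all 8 libraries, and Psma8 at 0 in 6, with 0.0494 TPM in hSKP2-KI replicate 2 and 0.151 in replicate 4. The mean TPM of the 39 ran from 11.9 for Psmd9 to 283 for Psmb4, and 38 of the 39 lay above the median tested gene (12.6 TPM). The median residual SD of the 39 on the log2 scale was 0.112, against 0.148 for all tested genes, and 31 of the 39 were below the latter value. It was 0.136 for the 20S core and 0.166 for the beta ring in it. Genes of like abundance were not compared. The levels of the genes relative to each other were also similar between libraries. Across the 39 genes, which are not independent replicates, the Pearson correlation of log2 levels between 2 libraries was 0.988 to 0.996 within a genotype. Between genotypes it was 0.973 to 0.995, and no other gene set was compared.

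**Figure D1:**
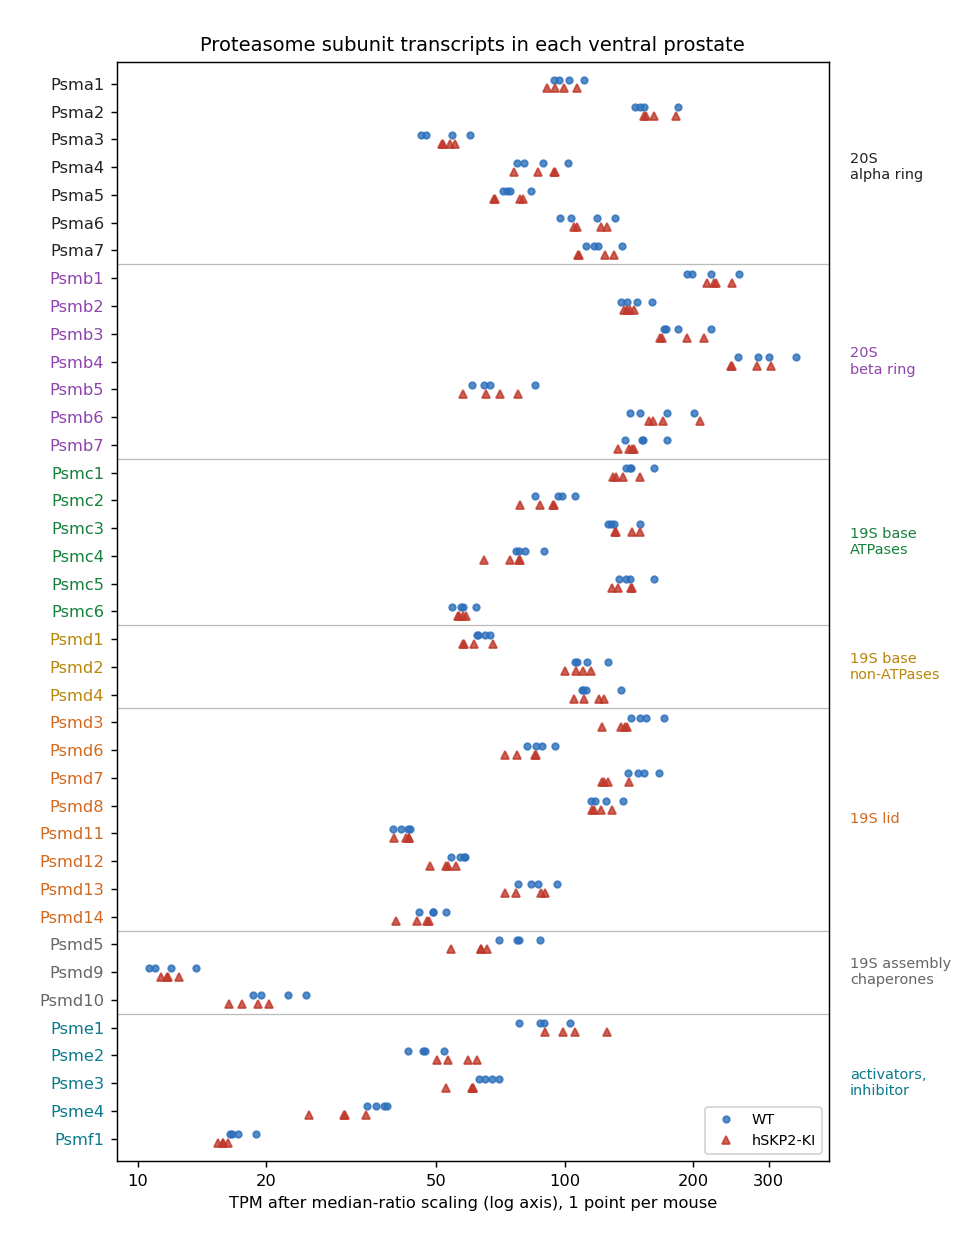
Scaled TPM (log axis) of the 39 tested proteasome subunit genes, with 1 point per mouse (circles, 4 WT; triangles, 4 hSKP2-KI), grouped by place in the complex. Levels run from Psmd9 near 12 to Psmb4 near 283 TPM, and the genotypes overlap for 34 of the 39 genes; Psmd3, Psmd5, Psme3, Psme4 and Psmf1 are lower in every hSKP2-KI mouse.

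Between genotypes, few of these genes differed. With limma on log2(scaled TPM + 1) and Benjamini-Hochberg adjustment over 13080 genes, 0 of the 39 were called higher in hSKP2-KI, where 6.91% of all genes were, and 1 of 39 was called lower (Psmd5), where 4.25% of all genes were. At an unadjusted p under 0.05 there were 6 of the 39, 1 higher and 5 lower, against 27.8% of all tested genes. The median log2 fold change of the 39 was -0.04, and that of all tested genes was -0.01. The sign was negative for 28 genes and positive for 11 on the scaled TPM, and it was the other one for 26 of the 39 as deposited. Every 95% interval lay between a fold of 0.691 and a fold of 1.39. No overlap between the groups was seen for 5 genes, all lower in hSKP2-KI (8.91% of all genes), and for 0 genes higher (10.3% of all genes).

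On the TPM as deposited the same genes gave a different count. There, 18 of 39 were called higher and 0 lower, where 32.7% of all tested genes were called higher and 1.23% lower, and 26 of 39 were above WT without overlap, against 34% of all genes, with 0 below WT without overlap (1.03%). The median log2 fold change was 0.22 for the 39 and 0.23 for all tested genes, and 23 of the 39 lay below the latter. The subunit genes together took 0.425% ± 0.0190 of TPM in hSKP2-KI (SD, n = 4; 0.407% to 0.443%) and 0.365% ± 0.0192 in WT (0.337% to 0.378%), so each hSKP2-KI value was above each WT value. With quantile normalization 1 of the 39 was higher and 2 were lower (5.42% and 4.65% of all genes), and with TPM rescaled without the 20 most abundant genes 1 was higher and 1 lower (6.82% and 3.35%). The counts were 0 and 1 with a pseudocount of 0.1 (6.83% and 4.26%), 0 and 0 with no filter on low values (2.21% and 1.5%) and 1 and 1 with the replicate number as a block (6.64% and 4.25%).

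**Figure D2:**
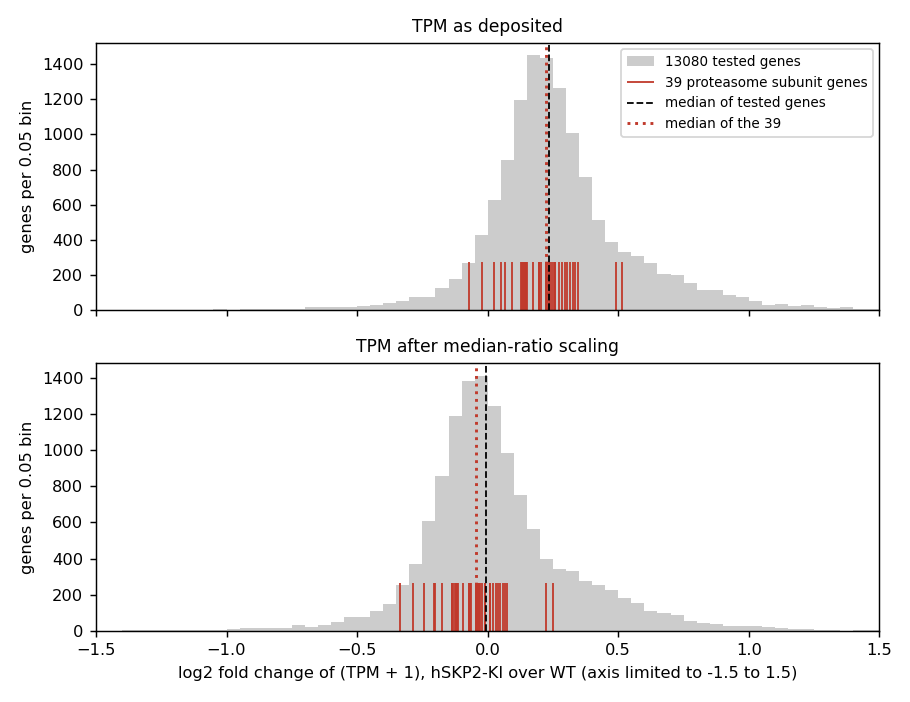
Number of genes per bin of log2 fold change, hSKP2-KI over WT, for the 13080 tested genes (grey) with the 39 proteasome subunit genes as red ticks, on the TPM as deposited (top) and after median-ratio scaling (bottom). Dashed and dotted lines mark the medians of all tested genes and of the 39, which are 0.23 and 0.22 at the top and -0.01 and -0.04 at the bottom.

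The alpha ring gates the entry to the core. On the scaled TPM the log2 fold changes of Psma1 to Psma7 lay between -0.04 (Psma7) and 0.05 (Psma2), with 4 positive and 3 negative, and 0 of 7 were called. Psma7 had scaled TPM of 130.5, 124, 107 and 108 in hSKP2-KI and 136, 117, 112 and 119 in WT, with overlap (log2 fold change -0.04, standard error 0.09, 95% interval -0.25 to 0.16, adjusted p = 0.797). Psma2, the most abundant of the ring, had scaled TPM of 182, 155, 153 and 162 in hSKP2-KI replicates 1 to 4 and 184, 146, 150 and 153 in WT replicates 1 to 4, and the 2 groups overlapped (log2 fold change 0.05, standard error 0.09, 95% interval -0.16 to 0.25, adjusted p = 0.793). Psma3 was the least abundant 20S transcript in all 8 libraries and Psmb4 the most abundant, 4.44 to 6.18 times as high per length, although the assembled core holds its subunits in equal number. As deposited, 6 of the 7 alpha genes were called higher, with log2 fold changes of 0.22 to 0.31 in the ring. On that scale 32.7% of all tested genes were called higher, and their median log2 fold change was 0.23.

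The beta ring holds the active sites. On the scaled TPM 0 of 7 were called, and 2 were positive. The ends of the range overlapped between groups: Psmb4 had 305, 281, 245 and 246 in hSKP2-KI and 349, 284, 255 and 300 in WT (log2 fold change -0.14, standard error 0.11, 95% interval -0.38 to 0.11, adjusted p = 0.463). Psmb1 had 246, 226, 215.5 and 223 in hSKP2-KI and 256, 194, 199 and 220 in WT (log2 fold change 0.08, standard error 0.10, 95% interval -0.14 to 0.29, adjusted p = 0.661). The catalytic subunits lay between these ends. Psmb5 had scaled TPM of 77.9, 70.5, 57.6 and 65.2 in hSKP2-KI and 85.3, 64.8, 60.5 and 66.9 in WT. The groups overlapped, and the log2 fold change of Psmb5 was -0.03 (standard error 0.12, 95% interval -0.30 to 0.24, adjusted p = 0.908). For Psmb6 the scaled TPM was 207, 170, 161 and 157 in hSKP2-KI and 200, 150, 142 and 174 in WT (log2 fold change 0.07, standard error 0.12, 95% interval -0.21 to 0.34, adjusted p = 0.777). Psmb7 had 145, 141, 144 and 133 in hSKP2-KI and 173, 138, 152 and 151 in WT (log2 fold change -0.12, standard error 0.08, 95% interval -0.30 to 0.05, adjusted p = 0.349). In each of these 3 catalytic subunits WT replicate 1 was the highest WT library. The transcript of Psmb5 was less abundant per length than those of Psmb6 and Psmb7 in each of the 8 libraries.

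Taken as geometric means, the 20S subunits had scaled TPM of 135, 125, 117 and 118 in hSKP2-KI replicates 1 to 4 and 144, 116, 114 and 126 in WT replicates 1 to 4. The ranges overlapped, and WT replicate 1 was the highest. The median log2 fold change of the 14 genes was -0.02, and 0.07 without WT replicate 1. The 17 genes of the 19S cap gave 89.1, 91.4, 86.4 and 82.2 in hSKP2-KI and 100.3, 88.4, 90.2 and 91.8 in WT, a median log2 fold change of -0.07 with 15 of 17 negative and 0 called. As deposited the medians were 0.25 for the core and 0.20 for the cap, with 10 of 14 and 6 of 17 genes called higher. For all tested genes the median there was 0.23, and 32.7% were called higher. The log2 ratio of the cap to the core in a library, which no factor per library changes, was -0.50 ± 0.07 in hSKP2-KI and -0.43 ± 0.08 in WT (SD, n = 4 each), and the ranges overlapped.

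**Figure D3:**
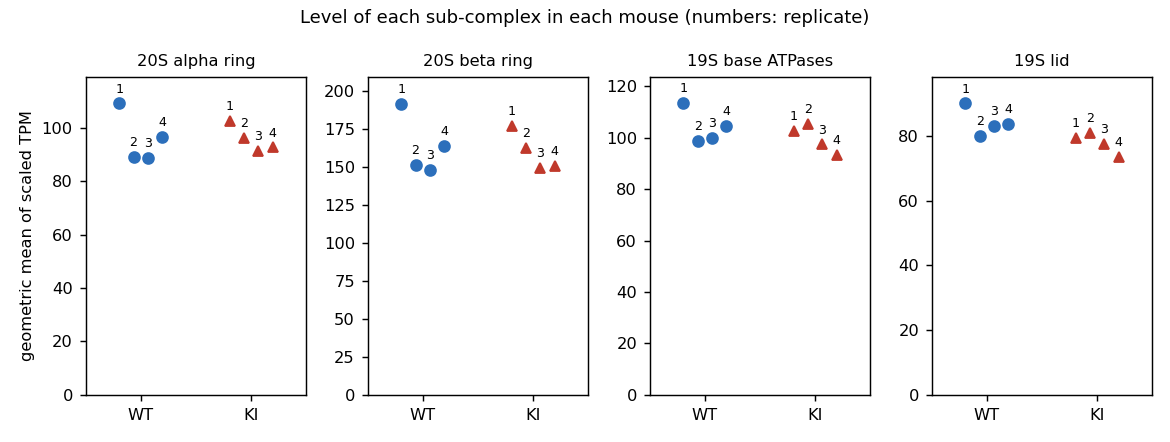
Geometric mean of scaled TPM in each mouse for the 20S alpha ring, 20S beta ring, 19S base ATPases and 19S lid. The replicate number stands above each point (circles for WT, triangles for hSKP2-KI), and the labels name no pairing by it. WT replicate 1 is the highest library in all 4 panels and the genotypes overlap in each.

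In the base of the 19S cap, the ATPases Psmc1 to Psmc6 unfold the substrate, and Psmd1, Psmd2 and Psmd4 bind ubiquitin or its carriers. None of these 9 genes was called. The log2 fold changes of the ATPases lay between -0.14 (Psmc4, standard error 0.08, 95% interval -0.32 to 0.04, adjusted p = 0.314) and 0.06 (Psmc3, standard error 0.08, 95% interval -0.12 to 0.23, adjusted p = 0.687). Psmc4 had scaled TPM of 78.0, 78.4, 74.5 and 64.6 in hSKP2-KI and 89.4, 76.9, 78.0 and 80.7 in WT. hSKP2-KI replicate 4 was the lowest of the 8 for Psmc4, as it was for 15 of the 39 genes. Psmc3 had 143, 150, 131 and 132 in hSKP2-KI and 150, 128, 126 and 130 in WT, and on the deposited scale it was called higher (log2 fold change 0.33, adjusted p = 0.00932). Psmd1 had 58.1, 61.3, 67.8 and 57.7 in hSKP2-KI and 66.9, 62.1, 65.03 and 62.8 in WT, with hSKP2-KI replicate 3 above all others (log2 fold change -0.07, standard error 0.07, 95% interval -0.22 to 0.09, adjusted p = 0.566). Psmd4 had 120.5, 124, 105 and 111 in hSKP2-KI and 135, 111, 109.5 and 112 in WT, with overlap (log2 fold change -0.02, standard error 0.09, 95% interval -0.22 to 0.18, adjusted p = 0.913).

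The lid removes the ubiquitin chain through Psmd14 with its partner Psmd7. Its 8 genes had a median log2 fold change of -0.12, 7 of 8 were negative and 0 were called. Psmd7 had the lowest, with scaled TPM of 122, 141, 124 and 126 in hSKP2-KI and 166, 140, 149 and 154 in WT (WT replicate 2 at 140.5 lay just under hSKP2-KI replicate 2 at 141.2). Its log2 fold change was -0.24 (standard error 0.08, 95% interval -0.41 to -0.08, adjusted p = 0.0665), it was called lower with quantile normalization (adjusted p = 0.0464), and as deposited it was 0.02 (adjusted p = 0.814). Psmd3, a scaffold of the lid, had 139, 140, 136 and 122 in hSKP2-KI and 170, 155, 143 and 150 in WT, without overlap (log2 fold change -0.20, standard error 0.08, adjusted p = 0.112). Psmd14 itself was at -0.12 on the log2 scale (adjusted p = 0.354). Psmd11, with 43.1, 39.7, 42.5 and 43.1 in hSKP2-KI and 41.3, 43.4, 42.99 and 39.6 in WT, was at 0.01 (standard error 0.06, 95% interval -0.13 to 0.15, adjusted p = 0.941).

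Psmd5, Psmd9 and Psmd10 help the base assemble and are not part of the finished proteasome. Psmd5 (chromosome 2, 34852087 to 34870965, minus strand, GRCm38) fell in hSKP2-KI. Its scaled TPM was 63.7, 65.9, 63.5 and 54.0 in hSKP2-KI replicates 1 to 4 and 87.6, 70.1, 78.0 and 77.4 in WT replicates 1 to 4. All 4 hSKP2-KI values were below all WT values, and the log2 fold change was -0.34 (standard error 0.09, 95% interval -0.53 to -0.14, adjusted p = 0.0371). The call depended on scaling and on single mice. As deposited Psmd5 was 67.9, 73.0, 69.6 and 60.7 TPM in hSKP2-KI and 72.4, 69.1, 69.8 and 73.1 in WT, which overlap (log2 fold change -0.07, adjusted p = 0.448), where the median of all genes was 0.23. It was called with quantile normalization (adjusted p = 0.0305) and without the 20 most abundant genes (adjusted p = 0.0251). It was not called with any of 7 of the 8 libraries left out (adjusted p between 0.052 and 0.0849), the exception being WT replicate 2 (0.0358).

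The other assembly chaperones were not called. Psmd10 (gankyrin), which also binds the retinoblastoma protein and CDK4, had scaled TPM of 19.1, 17.5, 20.3 and 16.4 in hSKP2-KI and 24.7, 19.4, 18.6 and 22.5 in WT (log2 fold change -0.20, standard error 0.10, adjusted p = 0.233). Psmd9, with 11.7, 11.8, 11.4 and 12.5 in hSKP2-KI and 13.7, 11.9, 10.9 and 10.6 in WT, was at 0.01 (standard error 0.09, 95% interval -0.18 to 0.20, adjusted p = 0.966).

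**Figure D4:**
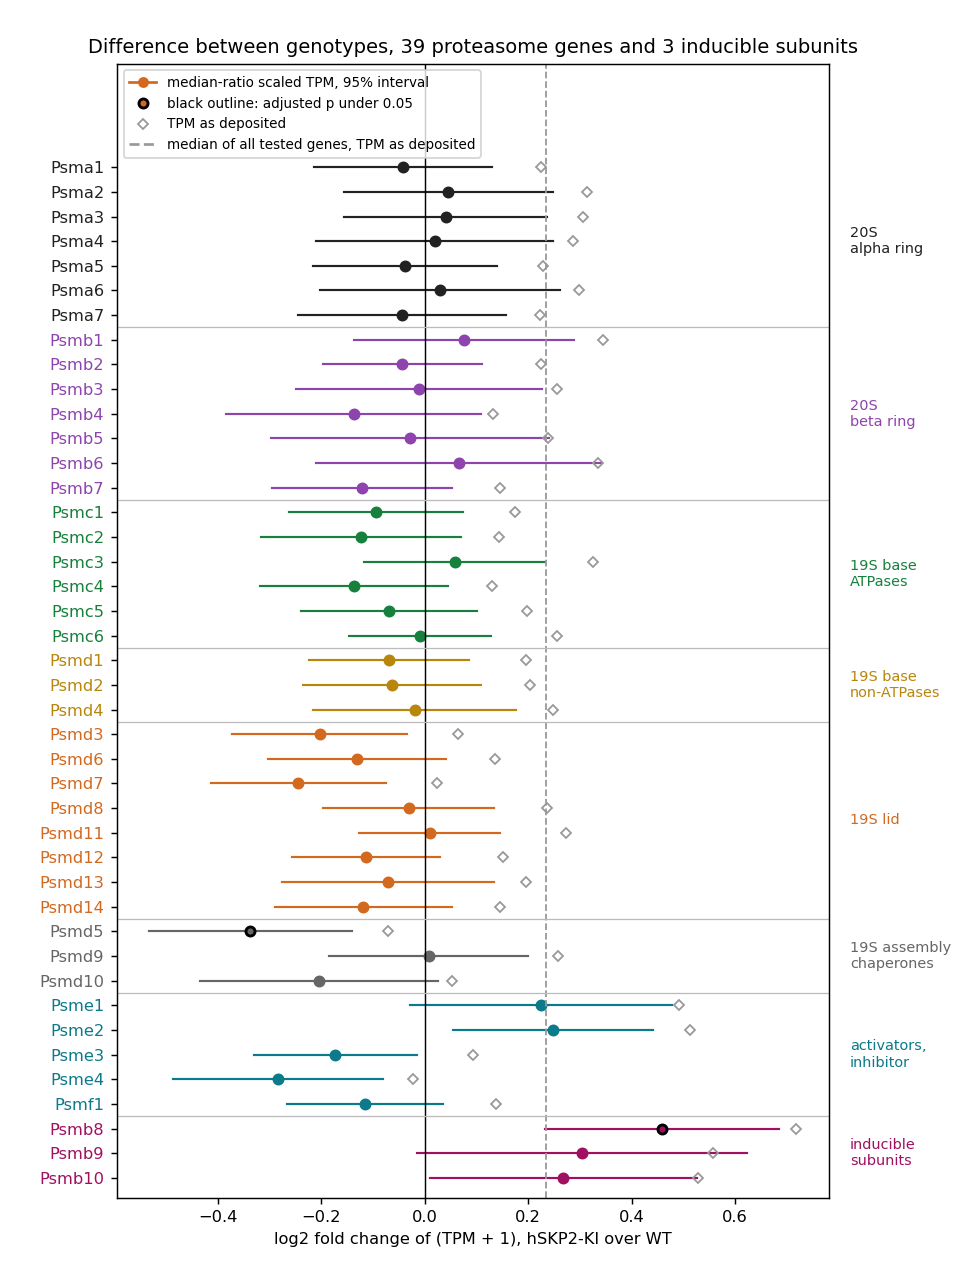
log2 fold change of (scaled TPM + 1), hSKP2-KI over WT, with 95% intervals (filled circles; black outline, adjusted p under 0.05) and the same on the deposited TPM (open diamonds) for the 39 genes and the 3 inducible subunits. The filled circles of the 39 lie between -0.34 (Psmd5) and 0.25 (Psme2), their diamonds lie between -0.07 (Psmd5) and 0.51 (Psme2) around a dashed line at 0.23, the median of all tested genes as deposited, and Psmb8 at 0.46 is the highest point of the plot on the scaled TPM.

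Among the caps and the inhibitor, log2 fold changes ran from -0.28 (Psme4) to 0.25 (Psme2), and 0 of 5 were called. Psme1 and Psme2 form the alternating cap that interferon gamma raises, Psme3 forms a nuclear cap of 1 kind of subunit, Psme4 forms a single-chain cap, and Psmf1 is an inhibitor of the core. Psme2 (chromosome 14, 55587440 to 55591101) had scaled TPM of 62.1, 59.4, 50.3 and 53.2 in hSKP2-KI and 52.0, 47.1, 42.9 and 46.6 in WT. Only WT replicate 1 reached into the hSKP2-KI range, and the log2 fold change was 0.25 (standard error 0.09, 95% interval 0.06 to 0.44, adjusted p = 0.0929). Psme2 was called with quantile normalization (adjusted p = 0.0344), without the 20 most abundant genes (0.0345), with the replicate number as a block (0.0421) and as deposited (log2 fold change 0.51, 0.00325). Its near-identical copy Psme2b was between 0.0836 and 1.11 TPM, and reads shared by both are uncertain. Psme1 (chromosome 14, 55578494 to 55581527) had 126, 106, 89.9 and 99.15 in hSKP2-KI and 103, 87.6, 78.2 and 89.5 in WT, with overlap (log2 fold change 0.22, standard error 0.11, adjusted p = 0.234; as deposited 0.49, adjusted p = 0.00738).

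Psme3, Psme4 and Psmf1 were lower in each hSKP2-KI mouse than in each WT mouse on the scaled TPM, and 0 of the 3 were called. Psme4 had 25.1, 30.5, 34.2 and 30.3 in hSKP2-KI and 36.1, 37.7, 38.3 and 34.5 in WT (log2 fold change -0.28, standard error 0.09, 95% interval -0.49 to -0.08, adjusted p = 0.0719). Psme3 had 60.6, 61.1, 60.9 and 52.7 in hSKP2-KI and 70.01, 65.2, 67.4 and 63.0 in WT (log2 fold change -0.17, standard error 0.07, adjusted p = 0.142). For Psmf1 the log2 fold change was -0.12 (adjusted p = 0.303). As deposited these 3 genes were at -0.02, 0.09 and 0.14.

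The inducible catalytic subunits, which replace Psmb5, Psmb6 and Psmb7 in the immunoproteasome, stand outside the set. Psmb8 rose, with scaled TPM of 34.3, 36.0, 28.4 and 30.7 in hSKP2-KI and 22.9, 20.1, 26.7 and 23.5 in WT, without overlap (log2 fold change 0.46, standard error 0.10, 95% interval 0.23 to 0.68, adjusted p = 0.0211). It was called under each of the other scalings (adjusted p between 0.0015 and 0.0186), and not without WT replicate 1 (0.053), without hSKP2-KI replicate 2 (0.0518) or with the replicate block (0.0546). Psmb9 had 22.3, 19.65, 13.3 and 15.9 in hSKP2-KI and 15.2, 12.6, 14.9 and 13.3 in WT (log2 fold change 0.30, standard error 0.14, 95% interval -0.02 to 0.62, adjusted p = 0.201). Psmb10 had 37.6, 33.3, 29.3 and 30.4 in hSKP2-KI and 32.9, 24.04, 27.6 and 23.7 in WT (log2 fold change 0.27, standard error 0.12, 95% interval 0.01 to 0.53, adjusted p = 0.164). Both overlapped and were not called, and both were called higher as deposited (0.56, adjusted p = 0.0122, and 0.53, adjusted p = 0.00359).

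Ratios of 2 transcripts in 1 library do not change with a factor applied to the whole library, and 5 pairs, chosen by subunit role with earlier results of these data known, were compared with two-sided exact permutation tests over the 70 assignments of 4 of 8 mice, whose smallest p is 0.0286. The ratio of Psmb10 to Psmb7 was 0.259, 0.236, 0.204 and 0.228 in hSKP2-KI and 0.190, 0.174, 0.182 and 0.157 in WT. All 4 hSKP2-KI mice lay above all WT mice (log2 difference 0.40, exact p = 0.0286, adjusted over the 5 ratios p = 0.0476). The ratio of Psme1 to Psme3 was 2.08, 1.73, 1.48 and 1.88 in hSKP2-KI and 1.47, 1.34, 1.16 and 1.42 in WT. Here too all 4 lay above, by little for hSKP2-KI replicate 3 (log2 difference 0.40, exact p = 0.0286, adjusted p = 0.0476). Psme2 to Psme3 was 1.02, 0.973, 0.825 and 1.010 in hSKP2-KI and 0.743, 0.723, 0.637 and 0.740 in WT, again without overlap (log2 difference 0.43, exact p = 0.0286, adjusted p = 0.0476). Both ratios share Psme3, so they are not independent. The adjusted p of 0.0476 rests on all 3 ratios being at the smallest p, these 2 among them. On the scaled TPM Psme3 was lower in every hSKP2-KI mouse (log2 fold change -0.17), beside 0.22 for Psme1 and 0.25 for Psme2. None of these 3 genes was called on that scale.

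The ratio of Psmb8 to Psmb5 was 0.440, 0.510, 0.493 and 0.471 in hSKP2-KI and 0.268, 0.310, 0.441 and 0.352 in WT. WT replicate 3 lay just above hSKP2-KI replicate 1, and the test did not pass (log2 difference 0.50, exact p = 0.0571, adjusted p = 0.0714). Psmb9 to Psmb6 was 0.108, 0.116, 0.0822 and 0.101 in hSKP2-KI and 0.0759, 0.0840, 0.105 and 0.0764 in WT, with overlap (log2 difference 0.26, exact p = 0.143, adjusted p = 0.143). With 1 mouse left out the 5 differences stayed positive, and the unadjusted exact p was under 0.05 in 6 of 8 cases for Psmb10 to Psmb7 (0.0571 without WT replicate 2 or 4), in 4 of 8 each for Psme1 to Psme3 and Psme2 to Psme3 (0.0571 without any 1 of the 4 WT mice) and in 1 of 8 for Psmb8 to Psmb5 (0.0286 without WT replicate 3).

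**Figure D5:**
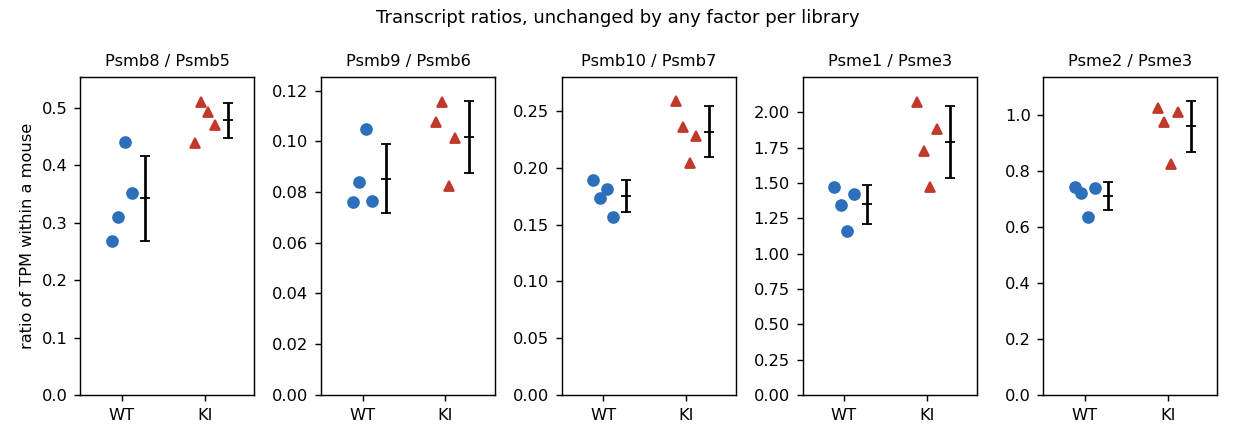
Ratio of the TPM of 2 genes in each mouse for 5 gene pairs, on linear axes from 0, with the mean and SD of 4 mice at the right of each group (circles, WT; triangles, hSKP2-KI). Psmb10 / Psmb7, Psme1 / Psme3 and Psme2 / Psme3 do not overlap between genotypes, and Psmb8 / Psmb5 and Psmb9 / Psmb6 do.

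Markers of some other cell types were called between genotypes on the scaled TPM, where 6.91% of all tested genes were called higher and 4.25% lower. Of the fibroblast markers 3 of 7 were called higher, with summed scaled TPM of 763 to 1288 in hSKP2-KI and 541 to 640 in WT, of the smooth muscle markers 3 of 6 (2748 to 4173 against 2062 to 2715), and of the endothelial markers 3 of 5 (34.9 to 53.3 against 24.2 to 27.95). The leukocyte list (Ptprc, Coro1a, Laptm5 and Cd52) had 0 of 4 called and summed to 42.4 to 91.0 in hSKP2-KI and 31.6 to 62.6 in WT, and the macrophage list had 0 of 7 called and summed to 191 to 391 and 113 to 216. The basal epithelial list had 0 of 4 called (274 to 383 against 219 to 369), and the ventral prostate secretory list (Sbp, Sbpl, Spink1 and Pbsn) had 1 of 4 called lower (Pbsn), with the list summing to 289065 to 313544 against 419490 to 541293. As deposited, 7 of 7 fibroblast, 6 of 6 smooth muscle, 5 of 5 endothelial and 6 of 7 macrophage markers were called higher. So were 2 of 4 leukocyte, 2 of 4 basal and 2 of 7 epithelial markers, and 2 of 4 secretory markers were called lower. Among all tested genes 32.7% were called higher and 1.23% lower on that scale. None of these markers was at 0 in all libraries. The part of these cells in the values of Psmb8, Psme1, Psme2 and the ratios was not tested.

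Outside the naming rule, the pathway lists (pathway genes below) held genes of the ubiquitin and proteasome route, NFE2L2 target genes and interferon gamma induced genes. Scaled TPM gave 3 higher (Psmb8, Slc7a11 and Gbp2) and 1 lower (Uba1) of their 54 tested genes (6.91% and 4.25% of all genes). As deposited, 16 were higher and 0 lower, where 32.7% and 1.23% of all tested genes were. In the transcription factor route to the subunit genes 0 of 7 were called, and 2 as deposited. On the scaled TPM 4 of the 7 were negative and 3 positive. Ngly1 was at -0.23 on the log2 scale, lower in every hSKP2-KI mouse (adjusted p = 0.067, and 0.04 as deposited). Ddi2 was at -0.30 with overlap (adjusted p = 0.321, and -0.03 as deposited). Nfe2l1 was at -0.06 on the log2 scale (adjusted p = 0.609; as deposited 0.21, 0.0511). The related oxidative stress factor Nfe2l2 was at 0.19 (adjusted p = 0.262; as deposited 0.45, 0.0271), and Maff, a partner of both, at 0.37 (0.216; as deposited 0.60, 0.0382). Of 7 NFE2L2 target genes 1 was called, and 5 as deposited. The 1 was Slc7a11, the cystine transporter, with scaled TPM of 1.11, 1.71, 1.69 and 3.00 in hSKP2-KI and 0.416, 0.405, 0.603 and 0.315 in WT, without overlap. It rose by a log2 fold of 0.97 (standard error 0.18, 95% interval 0.56 to 1.38, adjusted p = 0.0129), and by 1.83 with a pseudocount of 0.1 (0.00929), since the added 1 shrinks the fold of so low a gene. Of 10 tested interferon gamma induced genes 1 was called, and 5 as deposited. The 1 was Gbp2, a guanylate-binding protein, with scaled TPM of 7.77, 10.5, 6.63 and 8.86 in hSKP2-KI and 5.45, 4.21, 5.48 and 4.28 in WT, without overlap (log2 fold change 0.68, standard error 0.14, 95% interval 0.38 to 0.99, adjusted p = 0.0156). Tapbp, tapasin, which loads peptides on MHC class I, was at 0.20 without overlap (adjusted p = 0.0915), and it was called higher with quantile normalization (0.0226), without the 20 most abundant genes (0.0423) and as deposited (0.0026).

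Of the genes that feed the proteasome Uba1 alone was called on the scaled TPM. The ubiquitin-activating enzyme Uba1 fell (scaled TPM of 146, 145, 167 and 132 in hSKP2-KI and 182, 178, 190 and 170 in WT, log2 fold change -0.29, standard error 0.08, 95% interval -0.47 to -0.11, adjusted p = 0.0471). As deposited it was -0.02 (adjusted p = 0.861), and the call was kept without hSKP2-KI replicate 3 (0.025) and lost without any other mouse (0.0698 to 0.112), with quantile normalization (0.0852), without the 20 most abundant genes (0.0775), without a filter (0.0754), with a mean TPM of at least 5 (0.0511), with sample quality weights (0.0534) and with robust empirical Bayes (0.0519). The polyubiquitin gene Ubb, lower in every hSKP2-KI mouse and at -0.53 on the log2 scale (adjusted p = 0.0808), was called lower with quantile normalization (-0.44, 0.0487) and not as deposited (-0.26, 0.142). The 8 shuttle factors and proteasome-bound enzymes were negative on the scaled TPM, with a median of -0.19 and Usp14, a deubiquitinase, nearest to 0 at -0.02, and positive as deposited, with a median of 0.08. The 6 genes of the p97 complex, the unfoldase ahead of the proteasome, were negative on the scaled TPM, from -0.30 for Faf1 (adjusted p = 0.0527) to -0.03 for Ufd1l, and had a median of 0.14 as deposited, where Faf1 alone stayed negative. On either scale 0 genes of these 2 lists were called. Of the 20S assembly factors Psmg1 to Psmg4 and Pomp 0 of 5 were called, with log2 fold changes of -0.24 (Psmg1) to 0.11 (Psmg4), and Psmg2 was called higher as deposited (0.35, adjusted p = 0.0418). Adrm1, a ubiquitin receptor of the cap that the naming rule leaves out, was at -0.16 (adjusted p = 0.16).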

How the data were processed

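The authors sequenced poly-A RNA of 8 ventral prostates, mapped the reads in CLC software and deposited 1 table of TPM, in which each library was found to sum to 1000000. The version, annotation and counting options are not given in the sources used here, and the submitters' processing notes name the builds mm10 and GRCm38. Samples were grouped by their labels. The subunit genes, gene lists and ratios were chosen with earlier results of these data known. The filter kept the 13080 genes, 39 of the 41 subunit genes among them, for which 4 or more libraries held 1 TPM or above. TPM was divided by a median-ratio factor per library, and limma 3.58.1 (R 4.3.3) was run on log2(value + 1) (mean-variance trend, two-sided, Benjamini-Hochberg over all tested genes, threshold 0.05). The added 1 understates the change of low genes.

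Full statistics were given for the catalytic subunits, the genes with the largest rise and fall of each group, called genes of the pathway lists and the inducible subunits. The pairs of the ratios were listed with the tests. Psmd3, Psmd10, Psmd14, Psmf1, Psma3 and the uncalled genes of the pathway lists were named after their values were seen. The fit and the exact permutation test were checked on simulated data. Alternatives were the TPM as deposited, quantile normalization, TPM without the 20 most abundant genes, a pseudocount of 0.1, no filter, a mean TPM of at least 5, robust empirical Bayes, sample quality weights, the replicate number as a block and each library left out. Sem1, listed under an older symbol, was not matched, and some genes of the pathway lists are not reported here. Gene positions are from RefSeq on GRCm38. Plots used matplotlib 3.10.9 (Python 3.11.15).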

Additional observations from a re-analysis of the deposited data

Results flagged for a closer look

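Among the 88 groups of 4 mice examined, 4 held 1 library that stood apart by Dixon's criterion, which chance gives in about 1 in 20 groups. In WT, replicate 1 was above the others for Psmc1, at a scaled TPM of 161.8 against 139 to 143, and for Psmd4, at 135 against 110 to 112. In hSKP2-KI, Psmd11 was low in replicate 2, at 39.7 against 42.5 to 43.1, and Psme3 was low in replicate 4, at 52.7 against 60.6 to 61.1.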

How the results depend on the processing

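Scaling moved the results most. On the TPM as deposited, 4272 genes were higher and 161 lower, 18 subunit genes were higher and 0 lower, 16 pathway genes were higher and 0 lower, and the median log2 fold changes were 0.22 for the subunit genes, 0.25 for the 20S core and 0.20 for the 19S cap. There the sign turned, with a call, for Psma1 (0.22), Psma5 (0.23), Psmb2 (0.22), Psmb3 (0.26), Psmc5 (0.20), Psmc6 (0.26), Psmd4 (0.25) and Psmd8 (0.24). Subunit genes called higher were 1 with quantile normalization, 1 without the 20 most abundant genes and 1 with the replicate block, and 2 were lower with quantile normalization. Without a filter 526 genes were higher and 357 lower, with 0 subunit genes lower, and with a mean TPM of at least 5 there were 576 higher genes. Pathway genes called lower were 0 without the 20 most abundant genes, 0 without a filter and 0 with a mean TPM of at least 5.

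With 1 library left out, the genes called were 470 to 808 higher and 298 to 483 lower, the subunit genes 0 to 0 higher and 0 to 1 lower, and the pathway genes 2 to 4 higher and 0 to 3 lower. The medians ran from -0.08 to -0.01 for the subunit genes, from -0.0632 (without hSKP2-KI replicate 1) to 0.0715 (without WT replicate 1) for the 20S core and from -0.11 to -0.05 for the 19S cap. The ratio differences ran from 0.39 to 0.63 (Psmb8 to Psmb5), 0.35 to 0.46 (Psmb10 to Psmb7), 0.33 to 0.49 (Psme1 to Psme3) and 0.38 to 0.50 (Psme2 to Psme3). The labels give the replicate numbers and name no pairing by them. Deviations of same-numbered mice correlated at 0.23, -0.11, 0.17 and -0.01 across genes, which cannot tell whether such mice shared a batch. With the replicate block 869 genes were higher and 556 lower, and the ratio differences stayed at 0.40 (Psmb10 to Psmb7), 0.40 (Psme1 to Psme3) and 0.43 (Psme2 to Psme3), no longer past the threshold at an exact paired p of 0.125, the smallest 4 pairs can give. TPM keeps no counts, so counting error of the low transcripts could not be given.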
